A study of Mus musculus with 16 samples.

Results

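Mouse macrophages that had been with apoptotic Jurkat cells for 180 min were compared with macrophages that had been with them for 45 min. These were the latest and the earliest of the 3 exposure times of the study, so the comparison spans its widest interval. All libraries of either time were taken, 4 of 180 min and 4 of 45 min, which is 8 of 16 libraries in all, and every gene of the count table entered. The macrophages are of a Hoxb8 line, labelled as bone marrow in origin. Such cells are grown from progenitors that a conditionally active transcription factor, Hoxb8, keeps dividing and immature until it is withdrawn. The dying cells were Jurkat cells, a human leukaemic T cell line, and no other agent, allele or treatment is named for either time. The other 8 libraries were 4 of macrophages kept alone and 4 of 90 min. They entered the fit to share its estimate of the spread, and their levels are given beside the results. Macrophages kept alone have no time of harvest in the labels, and no group kept alone is matched to 180 min, so time in culture and time with dying cells cannot be told apart. Whether the 4 libraries of a time are separate cultures is not stated in the labels, so the p-values reflect the spread of these samples, which may be technical.

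Efferocytosis is the engulfment and clearance of dying cells. A macrophage finds such a cell by released signals, binds exposed lipids through receptors and bridging proteins, wraps it by remodelling actin, and digests it in a phagosome fused with lysosomes. Transcription in stimulated macrophages typically runs in waves: immediate early genes such as Egr1 and Fos need no new protein and are soon shut off by feedback, while later genes depend on factors made or activated in between. The title of the series names transcriptional pause release, the step at which a polymerase held just after the start of a gene is let go.

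Counts per library summed to 24378422 to 41688999 at 45 min and to 10690809 to 23423640 at 180 min. The first principal component of the 8 libraries held 67.4% of the variance and separated the times, from -15.9 to -13.2 at 45 min and from 11.7 to 16.9 at 180 min. On the second, which held 7.85%, 2 libraries of 180 min lay apart from each other at -10.4 and 8.94, and the library with the fewest counts was the one at -10.4. The cells carried the macrophage markers: 13 of 14 were above 1 CPM (the counts-per-million unit), and their sum was 12900 to 14000 CPM at 45 min and 10700 to 12200 CPM at 180 min. Of the 14 mouse T cell markers, 6 were at 0 in all 8 libraries, including Cd3e and Trbc1. The sum of the 14 was 10.5 to 11.6 CPM at 45 min and 11.6 to 16.3 CPM at 180 min. Human reads would enter these values only where they match a mouse gene, so the zeros do not show that Jurkat RNA was absent. Neutrophil markers summed to at most 4.36 CPM, dendritic cell markers to at most 6.62 CPM, B cell markers to at most 5.16 CPM and erythroid and mast cell markers to at most 0.291 CPM. Markers of myeloid progenitors summed to 24.6 to 36.0 CPM at 45 min and to 19.4 to 25 CPM at 180 min, nearly all of it Hoxb8, at 28.3 ± 4.46 and 21.6 ± 2.48 CPM (log2 fold change -0.39, named after its values were seen).

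Of 14168 genes tested, 5152 differed between 180 and 45 min at an adjusted p under 0.05, which is 36.4% of them. At 180 min 2596 genes (18.3%) were higher and 2556 (18%) were lower, and changes of at least 2-fold were found in 669 higher and 93 lower genes. The libraries of the 2 times did not overlap in 32.3% of genes, 15.8% on the higher and 16.5% on the lower side. Among 11436 protein-coding genes, 1905 (16.7%) were higher and 2490 (21.8%) lower. Scaling libraries by their upper quartile turned this into 2297 higher and 1951 lower, so which direction was more frequent among coding genes changed with the scaling. The median log2 fold change was 0.022 over all genes and -0.020 over coding genes, and the fold changes below are to be read against those values. Counts of list members called are likewise to be read against the 18.3% higher and 18% lower of all genes. Levels are CPM over the scaled library size, and ± is the SD over 4 libraries for a level and the standard error for a log2 fold change. A number in brackets after a gene is its log2 fold change, and libraries are numbered 1 to 4 within a time in file order.

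**Figure D1:**
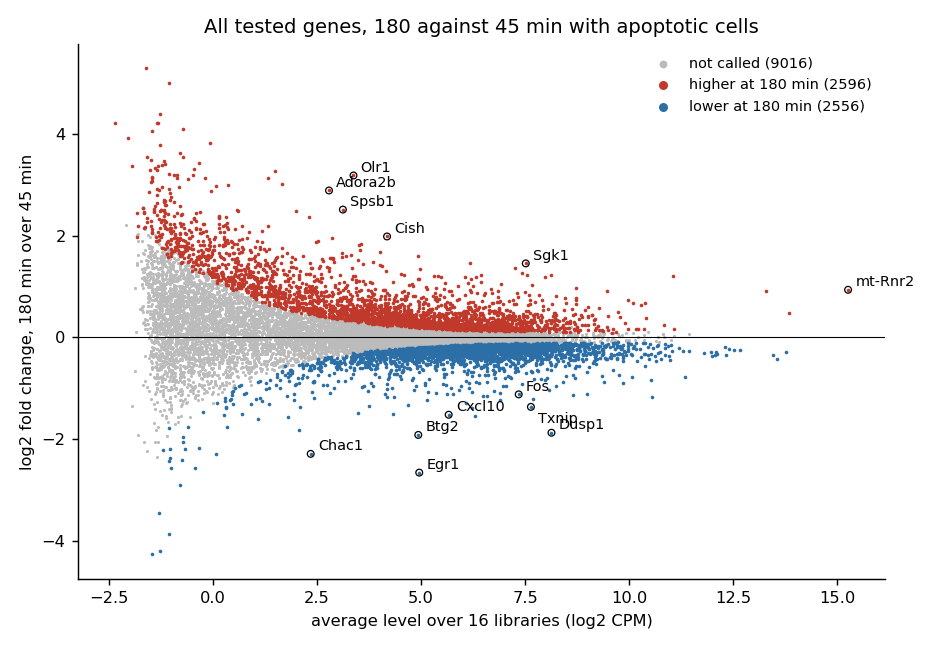
Log2 fold change of 180 min over 45 min (y axis) against average level over the 16 libraries in log2 CPM (x axis), 1 point a gene. Red points are the 2596 genes called higher at 180 min, blue points the 2556 called lower and grey points the rest, with some of the genes described in the text circled; the rises reach further than the falls among weakly expressed genes.

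Among called genes whose mean log2 CPM was 1 or more and whose times did not overlap, the largest rise was that of Olr1, the scavenger receptor LOX-1, which binds oxidised lipoprotein and aged or apoptotic cells. The level of Olr1 was 2.62, 3.85, 2.64 and 3.63 CPM in the 4 libraries of 45 min and 34.2, 33.5, 22.7 and 27.6 CPM in those of 180 min, a log2 fold change of 3.19 ± 0.15 (adjusted p = 1.34e-26). Macrophages alone had 3.62 ± 0.0975 CPM and those of 90 min 8.25 ± 1.49 CPM. So the 45 min level lay beside that of macrophages alone, and 180 min stood apart from every other time.

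Adora2b encodes the low-affinity adenosine receptor that raises cyclic AMP. It was at 2.39, 2.21, 2.27 and 1.84 CPM at 45 min and at 13.6, 17.9, 17.5 and 15.5 CPM at 180 min, a log2 fold change of 2.89 ± 0.16 (adjusted p = 2.27e-22). Its level at 90 min, 10.04 ± 1.60 CPM, was already well above the 1.67 ± 0.326 CPM of macrophages alone. Every library of 180 min exceeded every library of 90 min for this gene. Spsb1, an adaptor that directs the inducible nitric oxide synthase to degradation, went from 3.73, 2.48, 4.70 and 4.02 CPM to 25.4, 19.8, 21.7 and 18.6 CPM (2.52 ± 0.15). Cables1, which links cyclin-dependent kinases to the ABL kinase, went from 0.720, 0.851, 0.289 and 1.02 CPM to 4.70, 6.98, 7.05 and 7.33 CPM (3.13 ± 0.31). For Cables1, 1 library of 180 min sat below the other 3.

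Rapgef3, the exchange factor EPAC1 that cyclic AMP switches on, rose from 3.87 ± 1.21 to 15.3 ± 1.35 CPM, 1.97 ± 0.16 on the log2 scale. Slc7a2, a transporter of arginine and other cationic amino acids, rose by 1.82 ± 0.13, and Lrp8, a receptor for reelin and apolipoprotein E, by 1.73 ± 0.12. Pdgfa, a growth factor for mesenchymal cells, rose by 1.90 ± 0.32. The host transcript of the miR-17 to miR-92a cluster, Mir17hg, rose by 1.87 ± 0.18. The remaining genes of the 15 largest rises were Cish and Smad6, described below with their pathways, mt-Nd6, Bbs12 (1.57), which encodes a chaperonin-like protein of cilia, Cdc42ep2 (1.55), an effector of the actin regulator Cdc42, and Klhl42 (1.53), a substrate adaptor of a ubiquitin ligase. Klhl42 stood lower at 45 min, at 5.80 ± 0.618 CPM, than in macrophages alone, at 10.3 ± 0.631 CPM.

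Among the same genes the largest fall was that of Egr1, a zinc finger transcription factor and a classic immediate early gene. Its level was 74.9, 67.8, 59.3 and 74 CPM at 45 min and 10.9, 9.0, 10.3 and 12.8 CPM at 180 min, a log2 fold change of -2.66 ± 0.10 (adjusted p = 5.76e-30). Macrophages alone had 14.4 ± 1.98 CPM and those of 90 min 26.1 ± 4.17 CPM. The fall thus ran from a level well above that of macrophages alone to one slightly below it.

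Other shapes can be read among the 15 largest falls from the levels of all 4 groups. Btg2, an antiproliferative protein that recruits the deadenylase of messenger RNA, was at 35.6 ± 2.25 CPM alone, 55.3 ± 2.52 at 45 min, 12.5 ± 2.0 at 90 min and 14.6 ± 1.03 at 180 min. Txnip, an arrestin-like protein that restrains glucose uptake and binds thioredoxin, was at 277 ± 13.5, 284 ± 7.78, 124 ± 9.62 and 109.6 ± 10.2 CPM in the same order. Cxcl10, an interferon-induced chemokine for T cells, was at 61.8 ± 3.47, 61.4 ± 4.56, 56.4 ± 2.79 and 21.4 ± 2.59 CPM. Btg2 was therefore raised at 45 min and low by 90 min, Txnip was at its resting level at 45 min and low by 90 min, and Cxcl10 was low at 180 min only. Their log2 fold changes from 45 to 180 min were -1.92 ± 0.088, -1.37 ± 0.054 and -1.52 ± 0.075.

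In some other genes the fall was larger after 90 min than before it. Rnd3 is an atypical small GTPase that opposes actin contraction. It had 17.1 ± 1.43 CPM at 45 min, 14.7 ± 1.42 at 90 min and 6.69 ± 0.963 at 180 min (-1.35 ± 0.12). Pou3f1, a POU-domain transcription factor, had 87.6 ± 4.70, 69.1 ± 5.31 and 35.6 ± 1.68 CPM at the 3 times (-1.29 ± 0.065). Ppm1k, a mitochondrial phosphatase that activates the breakdown of branched-chain amino acids, had 31.6 ± 2.05, 24.7 ± 2.35 and 12.6 ± 0.798 CPM (-1.32 ± 0.091). In these genes the 4 libraries of 180 min lay below all 4 of 45 min, as the rule for the largest falls required. The rest of the 15 were Chac1, Dusp1, Ier2, Edn1, Cxcl2, Tnfsf9 and Mx2, described below, and Lipg, an extracellular lipase of the endothelial type (-1.56 ± 0.27).

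**Figure D2:**
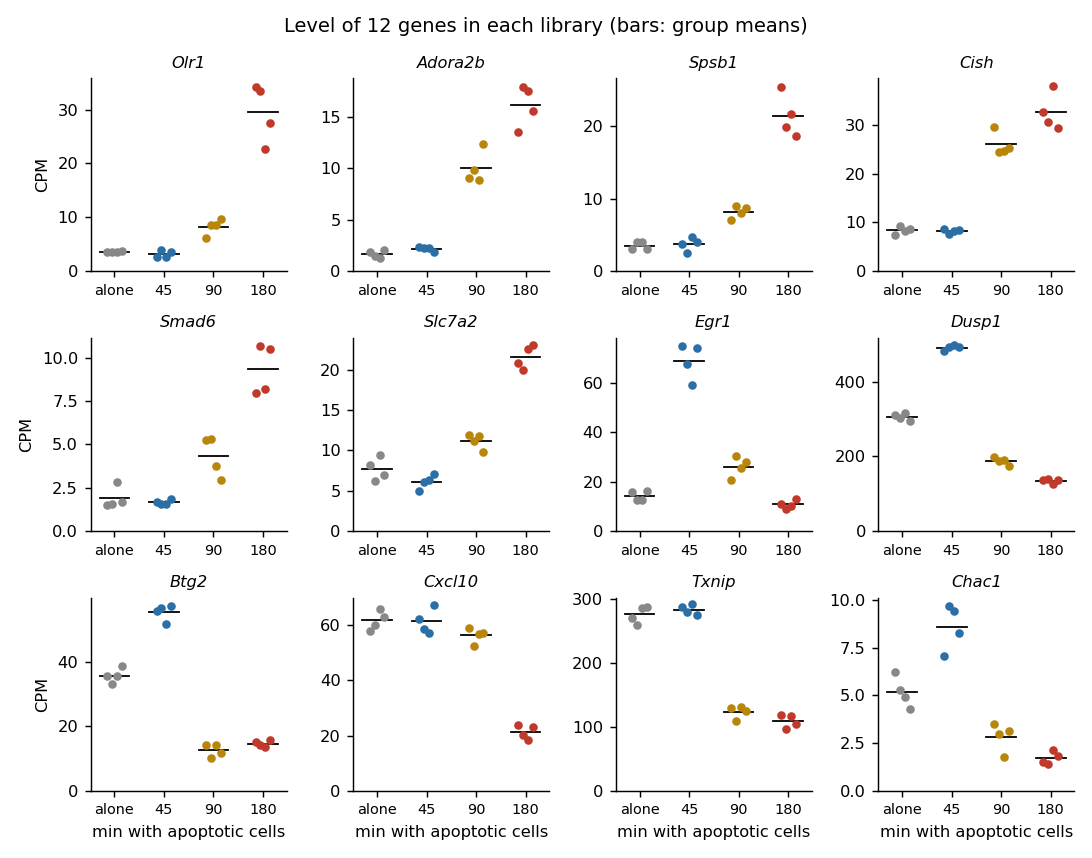
Level in CPM (y axis, linear and from 0) of 12 genes in each library, by group (x axis: macrophages alone and 45, 90 and 180 min with apoptotic cells). Points are libraries and bars are group means; Olr1 and Spsb1 climb mostly after 90 min, Egr1 peaks at 45 min, Txnip is low from 90 min and Cxcl10 is low at 180 min.

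Immediate early genes did not move as one. Of 36 tested, 15 fell (41.7%, against 18% of all genes), 8 rose and 13 were not called. Ier2, a small nuclear early-response protein, went from 39.8, 34, 33 and 38.5 CPM to 14.5, 11.4, 14 and 11.3 CPM (-1.50 ± 0.099). Fos, a subunit of AP-1, went from 275, 283, 273 and 241 CPM to 128, 120.5, 124 and 120.1 CPM (-1.12 ± 0.051). Its lowest mean was at 90 min, 89 ± 5.05 CPM, so Fos was higher again at 180 min. Csrnp1 (-1.08), Plk2 (-0.51), a polo-like kinase, and Zfp36 (-0.40), which brings AU-rich messages to decay, also fell. Nr4a1, an orphan nuclear receptor, had 6.58, 7.42, 7.71 and 10.1 CPM and then 7.43, 5.42, 5.01 and 6.61 CPM, and its log2 fold change of -0.38 ± 0.18 was not called (adjusted p = 0.0818); it was called without 45 min library 1 (0.045) and without 180 min library 1 (0.0351). On the other side, Sgk1, a kinase induced by serum and glucocorticoids, rose from 121, 119.6, 118 and 124 CPM to 341, 339, 318 and 328 CPM (1.46 ± 0.049), and Klf10, a factor induced by TGF-beta, rose by 0.40 ± 0.061.

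The EGR family and its co-repressors were split. Egr3 had 4.46 ± 1.64 CPM at 45 min, 4.92 ± 0.732 at 90 min and 2.29 ± 0.585 at 180 min, against 0.217 ± 0.179 alone, and fell from 45 to 180 min (-1.0 ± 0.27, adjusted p = 0.00253). Egr2 had 8.51, 7.52, 6.64 and 8.5 CPM at 45 min and 6.34, 2.48, 6.88 and 5.98 CPM at 180 min, a log2 fold change of -0.49 ± 0.18 (adjusted p = 0.0323). Its libraries overlapped, and leaving out 45 min library 1 or 4 or 180 min library 2 took the call away, as did upper-quartile scaling; without 180 min library 2 the adjusted p was 0.189. Nab2, which EGR proteins induce and which then represses them, rose from 9.92, 9.56, 9.28 and 10.1 CPM to 25.7, 26.3, 29.5 and 22.5 CPM (1.42 ± 0.11). The level of Nab2 at 90 min was 21.7 ± 2.01 CPM. Nab1, the constitutive family member, was not called (0.11 ± 0.049, adjusted p = 0.0635), but was under upper-quartile scaling (0.00799), at a minimum count of 30 (0.0358) and among coding genes alone (0.0166).

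Phosphatases and Sprouty-type inhibitors that switch off MAP kinases mostly fell: 9 of 15 tested were lower (60.0%, against 18% of all genes). The list had 1 member higher and a median log2 fold change of -0.37. Dusp1, which inactivates p38 and JNK, went from 482, 491, 498 and 492 CPM to 137, 138, 124 and 135 CPM, a log2 fold change of -1.88 ± 0.046 (adjusted p = 8.36e-40). Macrophages alone held 306 ± 9.89 CPM of Dusp1, so 180 min was below both 45 min and the resting level. Dusp6, which inactivates ERK, went from 125 ± 7.08 to 56.4 ± 6.16 CPM (-1.15 ± 0.059). Spry2 (-1.04 ± 0.065), an inhibitor of growth factor signalling, and Dusp5 (-0.78 ± 0.067) fell. Dusp4 was the member that rose (0.31 ± 0.046).

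A total of 8 motifs was searched in promoters of the RefSeq table. Dusp1 and Btg2 are shown because they are the 2 genes among the largest falls whose promoter held the full cyclic AMP response element TGACGTCA, searched on both strands. Of the 15 largest falls 9 had a promoter in the RefSeq table (build GRCm38.p6), and 2 of the 9 held it. It was in 1.79% of all 32851 promoters of the table, in 3.58% of the 9650 tested genes with a promoter there and in none of the 11 genes with a promoter among the 15 largest rises. Of the other motifs, the antioxidant response element TGACNNNGC was in 5 of the same 9 genes (17.2% of tested genes held it) and in 4 of the 11, and the interferon core described below was in 2 of the 9. The window read was 250 bases before to 50 after the start. The 250 bases before the start are printed in lower case, 5' to 3' along the gene, with the element in capitals. Its first base lies at position -143 from the start of Dusp1 and at -166 from that of Btg2. The match is a description of the letters, and binding was not measured here.
Dusp1, chr17:26508473-26508722, minus strand: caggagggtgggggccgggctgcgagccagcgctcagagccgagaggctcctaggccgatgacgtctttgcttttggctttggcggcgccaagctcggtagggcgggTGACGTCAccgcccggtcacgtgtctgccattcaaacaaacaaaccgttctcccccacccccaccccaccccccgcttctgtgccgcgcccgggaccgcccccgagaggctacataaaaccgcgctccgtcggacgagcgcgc
Btg2, chr1:134079156-134079405, minus strand: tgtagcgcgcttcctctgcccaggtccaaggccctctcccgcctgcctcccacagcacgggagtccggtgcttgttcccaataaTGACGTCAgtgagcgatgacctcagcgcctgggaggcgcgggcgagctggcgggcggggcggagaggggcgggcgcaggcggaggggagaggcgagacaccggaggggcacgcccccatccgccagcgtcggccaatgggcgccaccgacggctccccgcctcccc

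Messages for inflammatory cytokines and chemokines were lower at 180 min in 12 of 26 tested genes (46.2%) and higher in 3, with a median log2 fold change of -0.346. Cxcl2, which attracts neutrophils, had 149, 147, 138 and 139 CPM at 45 min and 47, 53.7, 48 and 48.7 CPM at 180 min (-1.54 ± 0.059, adjusted p = 2.89e-30). Its resting level was 59.1 ± 3.55 CPM and its 90 min level 56.6 ± 3.06 CPM. Cxcl2 was thus high at 45 min only. Ccl4 (-1.11 ± 0.073), a chemokine for monocytes and T cells, its neighbour Ccl3 (-0.74 ± 0.064) and Tnfsf9 (-1.37 ± 0.21), the ligand of the co-stimulatory receptor 4-1BB, fell. Ptgs2, the inducible cyclooxygenase, fell from 37.5 ± 2.43 to 18.3 ± 2.51 CPM (-1.04 ± 0.091). Tnf moved the other way, from 189, 173, 174 and 182 CPM to 251, 236, 237 and 232 CPM (0.41 ± 0.05, adjusted p = 7.74e-10). Il1b was at 19.6, 14.9, 16 and 19.2 CPM and then at 20.7, 14, 12.4 and 10.4 CPM, and its log2 fold change of -0.31 ± 0.13 was just outside the threshold (adjusted p = 0.0514). Without 180 min library 1, which held the 20.7 CPM, the log2 fold change of Il1b was -0.54 (adjusted p = 0.000294), and it was also called without 45 min library 2 or 3. The other genes called higher were Il1a (0.53) and Lif (1.68, with under 2.2 CPM in every library), named after their values were seen.

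Among 19 secreted growth factors and anti-inflammatory mediators, 6 fell (31.6%, against 18% of all genes) and 2 rose (10.5%, against 18.3%). Without 45 min library 2 or under upper-quartile scaling, 4 rose. Both genes that rose with all libraries encode chains of platelet-derived growth factor, which acts on mesenchymal cells. Pdgfb had 6.19, 6.67, 5.81 and 7.96 CPM at 45 min and 18.1, 15.5, 18.7 and 16.3 CPM at 180 min (1.36 ± 0.13). Pdgfa had 1.24, 1.5, 1.11 and 0.968 CPM and then 5.66, 5.24, 3.70 and 3.58 CPM. No library of 180 min overlapped one of 45 min in Pdgfb. The same held for Pdgfa, where the rule for the largest rises required it. Edn1, the vasoconstrictor endothelin-1, went from 7.76, 6.37, 6.97 and 7.0 CPM to 1.64, 2.30, 2.17 and 1.85 CPM (-1.82 ± 0.23), with 2.77 ± 0.869 CPM alone. Il10, an anti-inflammatory cytokine, had 5.24, 3.0, 3.01 and 2.47 CPM at 45 min and 0.818, 2.48, 0.680 and 0.843 CPM at 180 min (-1.61 ± 0.34, adjusted p = 1.16e-04). The 180 min library with 2.48 CPM was apart from the other 3. Grn (-0.37), Il1rn (-0.23) and Lgals3 (-0.18) fell by less.

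NF-kB subunits and their feedback inhibitors were more often higher than lower, 12 against 5 of 23. Those shares were 52.2% and 21.7%, against 18.3% and 18% of all genes. Zc3h12a, the endonuclease Regnase-1 that degrades cytokine messages, rose from 116, 112, 106 and 114 CPM to 279.6, 274, 268 and 261 CPM (1.27 ± 0.05). Nfkbid (0.81), a nuclear inhibitor protein, Tnip2 (0.65) and Tnfaip3 (0.30), a deubiquitinase, rose as well. Nfkbiz, the related nuclear co-factor of NF-kB, fell from 173, 155, 152 and 166 CPM to 71.2, 74.6, 64.4 and 67.8 CPM (-1.22 ± 0.056). Nfkbid and Nfkbiz thus differed in direction although both belong to the nuclear branch of the inhibitor family. Upstream, 12 of 23 Toll-like receptors and adaptors fell (52.2%, against 18% of all genes) and 4 rose (17.4%, against 18.3%). Tlr3 (-0.64), a sensor of double-stranded RNA, Myd88 (-0.52), the shared adaptor, Unc93b1 (-0.35), which carries receptors to endosomes, and Tlr8 (-0.33) fell. Tlr2, the surface receptor for lipopeptides, rose by 0.74 ± 0.069, and Traf6, a ubiquitin ligase of the pathway, by 0.45 ± 0.061.

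Genes of SMAD signalling, the pathway of TGF-beta and bone morphogenetic proteins, rose in 11 of 21 tested cases (52.4%, against 18.3% of all genes) and fell in none. The list's median was 0.24. Without 180 min library 1, 2 fell, and without library 4, 1 fell. With a length and GC trend removed, 11 rose, 2 fell and the median was 0.144. The strongest were feedback inhibitors that the pathway itself induces. Smad6, an inhibitory SMAD, had 1.67, 1.57, 1.53 and 1.82 CPM at 45 min and 7.97, 10.7, 8.16 and 10.5 CPM at 180 min (2.49 ± 0.22, adjusted p = 2.58e-14). Smad7, the other inhibitory SMAD, had 11.7, 9.73, 12.8 and 12.6 CPM and then 32.1, 27, 32.5 and 31.3 CPM (1.40 ± 0.1). Pmepa1, which sequesters receptor SMADs, rose by 1.44 ± 0.12. The receptor SMAD Smad3 went from 47.5, 44.2, 46.4 and 41.1 CPM to 90.3, 91, 89.5 and 89.2 CPM (1.01 ± 0.061), and the 4 libraries of 180 min were within 2 CPM of each other. Id2, an inhibitor of basic helix-loop-helix factors, rose from 199.9 ± 5.72 to 332 ± 15 CPM (0.73 ± 0.044), and the co-repressor Ski by 0.53 ± 0.043.

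The promoter of Smad6 is shown because it was the one among the 15 genes of the SMAD list with a promoter in the table to hold the SMAD palindrome GTCTAGAC, which reads alike on both strands and which 0.213% of all promoters and 0.29% of tested genes held. The palindrome, in capitals, spans the annotated start and reaches 4 bases beyond it, and the sequence is printed up to its end.
Smad6, chr9:64022056-64022309, minus strand: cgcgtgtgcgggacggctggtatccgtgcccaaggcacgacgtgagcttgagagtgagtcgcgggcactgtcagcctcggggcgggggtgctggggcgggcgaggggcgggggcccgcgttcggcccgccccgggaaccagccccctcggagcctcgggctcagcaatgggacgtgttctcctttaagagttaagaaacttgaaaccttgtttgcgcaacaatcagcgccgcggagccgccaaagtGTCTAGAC

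Cyclic AMP signalling genes rose in 13 of 31 cases (41.9%, against 18.3% of all genes) and fell in 6 (19.4%, against 18%). Besides Adora2b and Rapgef3, the prostaglandin E2 receptor Ptger4 rose from 43.1, 40.4, 39.99 and 39.9 CPM to 71.5, 76.1, 82.9 and 75.4 CPM (0.91 ± 0.064). Phosphodiesterases that break cyclic AMP down rose too, Pde4d by 1.37 ± 0.16 and Pde3b by 0.81 ± 0.12. Prkar2b, a regulatory subunit of protein kinase A, rose by 0.84 ± 0.097. Members of the same classes also fell: the phosphodiesterase Pde4b (-0.36 ± 0.061) and the kinase subunits Prkaca (-0.35 ± 0.065) and Prkar2a (-0.21 ± 0.054), named after their values were seen.

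SOCS proteins, which end cytokine signalling through JAK and STAT, and cytokine receptors rose in 13 of 29 cases and fell in 8. Those shares were 44.8% and 27.6%, against 18.3% and 18% of all genes. Cish, a STAT5 target that feeds back on its receptors, had 8.71, 7.66, 8.16 and 8.45 CPM at 45 min and 32.6, 30.6, 38.1 and 29.4 CPM at 180 min (1.99 ± 0.10). At 90 min it was already at 26.1 ± 2.41 CPM. Socs2, chosen after its values were seen, showed a log2 fold change of 3.43 ± 0.58 at a low level, from at most 0.295 CPM at 45 min to at least 1.38 CPM at 180 min. Among the receptors, Il4ra (0.66) and Il17ra (0.63) rose, and Tnfrsf1a (-0.61) and Ifngr1 (-0.46), a chain of the interferon-gamma receptor, fell.

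Interferon-stimulated genes fell nearly as a block. Of 40 tested, 37 fell (92.5%, against 18% of all genes), none rose, and the median log2 fold change was -0.471. In each of the 37 the libraries of 180 min lay below all libraries of 45 min, which held for 16.5% of all genes. The 3 that were not called were Rtp4 (-0.097), Oas2 (-0.059) and Irf9 (-0.03), named after their values were seen. Between 36 and 38 members were called lower under every setting tried. Mx2, an antiviral GTPase whose gene model is classed as a polymorphic pseudogene in the annotation, had 94.3, 97.9, 96.5 and 95.2 CPM at 45 min and 33.7, 37.9, 35.6 and 39.8 CPM at 180 min (-1.38 ± 0.06). Ifit1, which binds viral RNA lacking cap methylation, had 1061, 1034, 1112 and 1095 CPM and then 587, 559, 569 and 585 CPM (-0.90 ± 0.037, adjusted p = 9.75e-29). Cmpk2 (-1.18), a nucleotide kinase of mitochondria, Mx1 (-1.14), Ifit2 (-0.83) and Rsad2 (-0.77), the antiviral enzyme viperin, fell likewise.

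The 45 min levels lay near or, for Mx2, slightly above those of macrophages alone and of 90 min. Ifit1 had 1065 ± 10.6 CPM in macrophages alone and 1007 ± 19.8 at 90 min, Rsad2 had 2816 ± 82.6 and 2822 ± 101 CPM, and Mx2 had 83.8 ± 4.94 and 79.5 ± 2.52 CPM. The low level at 180 min was thus the one that stood apart among the 4 groups for these genes. Ifit1, Rsad2 and Cxcl10 are shown because their promoters held the core of the interferon-stimulated response element, the motif that the factor ISGF3 and interferon regulatory factors bind. The core searched was GAAANNGAA on both strands, and overlapping matches were counted. It was found in 18 of 29 interferon-stimulated genes with a promoter in the table (62.1%), in 9.02% of tested genes and in 8.56% of all promoters. Ifit1 held 3 matches, 2 of them overlapping, and Rsad2 and Cxcl10 held 1 each. Ifit2 and Cmpk2, which also fell, held none in this window. The sequences run along the gene, and where the core lies on the other strand the capitals read as its reverse complement.
Ifit1, chr19:34640639-34640888, plus strand: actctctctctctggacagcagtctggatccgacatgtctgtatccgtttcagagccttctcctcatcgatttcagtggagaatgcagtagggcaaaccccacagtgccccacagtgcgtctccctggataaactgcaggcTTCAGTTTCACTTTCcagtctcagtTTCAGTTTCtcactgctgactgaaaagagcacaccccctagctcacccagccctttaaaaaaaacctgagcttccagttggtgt
Rsad2, chr12:26456453-26456702, minus strand: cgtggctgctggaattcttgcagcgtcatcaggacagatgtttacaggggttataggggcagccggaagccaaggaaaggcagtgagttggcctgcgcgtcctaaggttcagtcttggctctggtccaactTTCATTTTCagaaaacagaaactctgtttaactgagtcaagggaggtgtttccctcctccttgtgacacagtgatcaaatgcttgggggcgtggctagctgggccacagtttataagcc
Cxcl10, chr5:92348890-92349139, minus strand: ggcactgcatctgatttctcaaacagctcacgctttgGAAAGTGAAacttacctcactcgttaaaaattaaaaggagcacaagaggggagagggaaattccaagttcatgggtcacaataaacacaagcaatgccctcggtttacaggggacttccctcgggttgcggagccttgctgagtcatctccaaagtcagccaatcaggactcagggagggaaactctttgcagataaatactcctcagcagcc

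All 16 tested genes of MHC class I presentation fell, with log2 fold changes from -0.663 to -0.155, a median of -0.377 and no overlap of libraries in any of them. Over all genes 18% fell, and 16.5% had no overlap on the lower side. In the fifth of coding genes with the highest level 47.0% fell, and the part of level here was not tested. Tap2, one chain of the peptide transporter of the endoplasmic reticulum, had 273, 266, 262 and 278 CPM at 45 min and 174, 155, 174 and 177 CPM at 180 min (-0.66 ± 0.047). Psmb8, a subunit of the immunoproteasome, had 261, 257, 275 and 276 CPM and then 188, 197, 179 and 179.9 CPM (-0.53 ± 0.046). Tap1 (-0.45) and Tapbp (-0.42), which load peptides, fell as well. The class I heavy chains H2-K1 (-0.34 ± 0.033) and H2-D1 (-0.35 ± 0.035) fell by less, and as near-identical genes they may share reads. With the mitochondrial genes left out of the table, 37 of 40 interferon-stimulated and 16 of 16 class I genes fell. That setting changed little for these lists, with medians of -0.469 and -0.376. The part of mitochondrial counts in these falls was not tested. Macrophage markers fell beside them in 11 of 13 tested cases (median -0.203), and the part of that in these results was not tested. In bulk samples fewer cells of a type and less RNA per cell cannot be told apart.

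**Figure D3:**
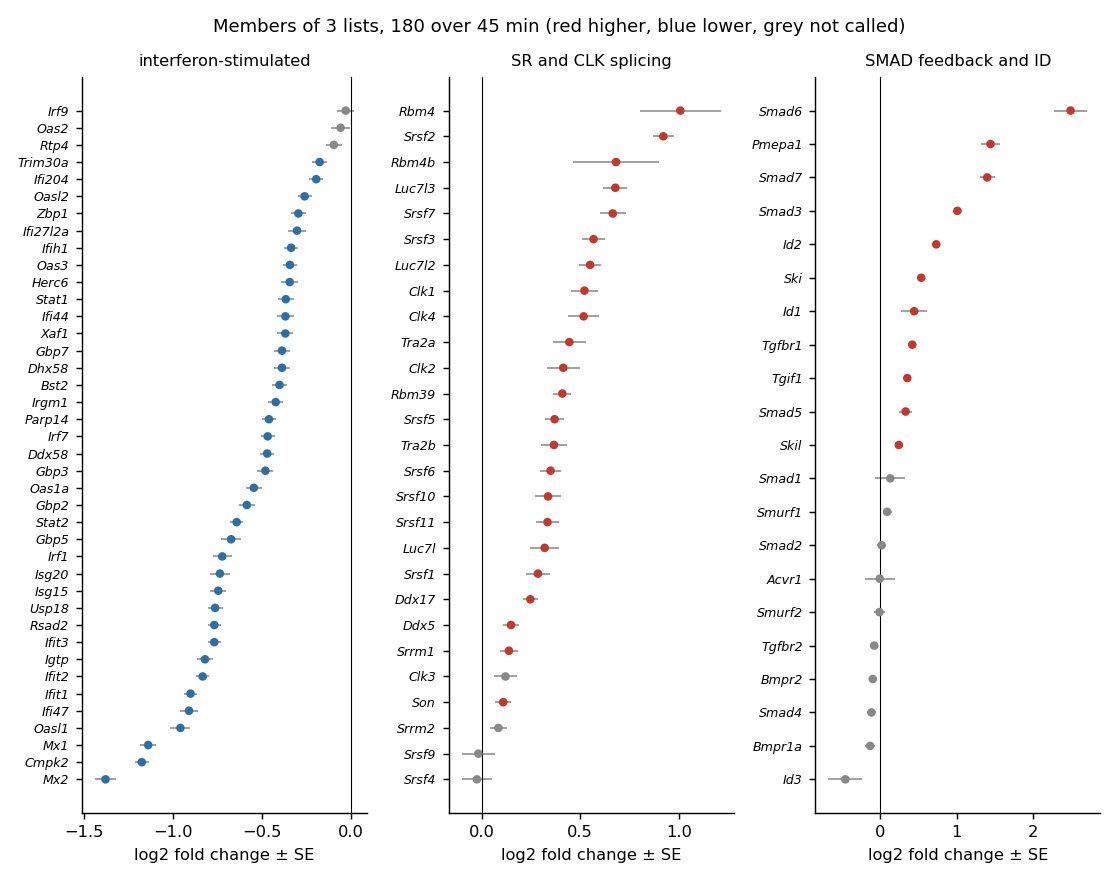
Log2 fold change of 180 over 45 min (x axis) with its standard error for each tested member of 3 gene lists (y axis), with red for called higher, blue for called lower and grey for not called. The interferon-stimulated genes lie left of 0, 37 of 40 of them called, while 23 of 27 splicing genes and 11 of 21 SMAD and ID genes are called on the right.

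Receptors and bridging molecules for apoptotic cells fell in 13 of 30 cases (43.3%, against 18% of all genes). They rose in 6 (20.0%, against 18.3%). Olr1, described above, was among the rises. Stab1, a receptor for phosphatidylserine, rose from 309, 339.9, 300.3 and 311 CPM to 603, 673, 660.4 and 551 CPM (0.98 ± 0.052). Lrp1, which takes up calreticulin-coated cells, rose by 0.67 ± 0.051, and Cd300lf, a lipid-binding immune receptor, by 0.53 ± 0.047. Mertk, the receptor kinase that binds Gas6 and protein S, had 80.4, 81.1, 85.2 and 78.7 CPM at 45 min and 73.4, 75.2, 74.3 and 72.7 CPM at 180 min, a log2 fold change of -0.14 ± 0.053 (adjusted p = 0.0349). This small fall was not called without 45 min library 3 (adjusted p = 0.0892), without 180 min library 4 (0.0619) or under upper-quartile scaling (0.167). Fcgr1 (-0.43 ± 0.039), the high-affinity receptor for immunoglobulin G, and C1qb (-0.32 ± 0.045), a chain of the bridging protein C1q, fell. Tyro3, of the same kinase family as Mertk and chosen after its values were seen, had a log2 fold change of 3.55 ± 0.85 from a mean of 0.0640 ± 0.0569 CPM to one of 0.740 ± 0.0858 CPM. Axl, also a kinase of that family (-0.55 ± 0.087), and the ligand Gas6 (-0.28 ± 0.090) fell, chosen in the same way.

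Receptors for the signals by which dying cells are found were called higher in 4 of 19 cases (21.1%, against 18.3% of all genes). They were called lower in 5 (26.3%, against 18%). Cxcr4, the receptor for CXCL12, rose from 34.5, 28.8, 34.7 and 37.4 CPM to 76.8, 71.4, 67.9 and 70.4 CPM (1.08 ± 0.072). S1pr1, for sphingosine-1-phosphate, rose by 0.39 ± 0.055 and the chemokine receptor Ccr1 by 0.31 ± 0.05. The formyl peptide receptors Fpr1 (-0.35) and Fpr2 (-0.44) and the ATP-gated channel P2rx4 (-0.35) fell.

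The machinery of engulfment and digestion fell broadly by small amounts. Of 43 engulfment and actin regulators 29 fell (67.4%) and 4 rose, with a median of -0.157. Dock8 (-0.43), an activator of Cdc42, Rac2 (-0.38), the haematopoietic Rac, Cfl1 (-0.32), the filament-severing cofilin, Capg (-0.31) and Actb (-0.25), cytoplasmic actin, were lower, and the exchange factor Trio was higher (0.69). With upper-quartile scaling 21 fell and 7 rose. Of 51 phagosome and lysosome genes 31 fell (60.8%, against 18% of all genes), 3 rose and the median was -0.171. Under upper-quartile scaling 25 of them fell and 6 rose. Falls were frequent among highly expressed coding genes in general, at 47.0% in the fifth with the highest level. The part of level in the falls of these 2 lists was not tested. Cd68, a lysosomal membrane glycoprotein, had 867, 878, 889 and 862 CPM at 45 min and 743, 617, 659 and 672 CPM at 180 min (-0.38 ± 0.044). Lgmn (-0.34), Psap (-0.34), Npc2 (-0.32), which hands cholesterol out of lysosomes, and the proteases Ctsb (-0.30) and Ctss (-0.28) fell. The 3 that rose, named after their values were seen, were Tfeb (0.29), a transcription factor for lysosomal genes, Mcoln1 (0.25), the lysosomal calcium channel, and the proton pump subunit Atp6v0a1 (0.16).

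Genes that handle lipid from engulfed cells moved both ways, 9 of 27 higher and 9 lower in the list of cholesterol efflux, LXR and PPAR genes. That was 33.3% each way, against 18.3% and 18% of all genes. Ppard, a nuclear receptor for fatty acids, rose from 17.5, 16.1, 18.3 and 17.6 CPM to 43.8, 40.3, 41.5 and 38 CPM (1.24 ± 0.09). Acsl1, which activates fatty acids, rose by 0.83 ± 0.046, and Mylip, a ubiquitin ligase induced by LXR, by 0.25 ± 0.047. Abca1, the main cholesterol exporter, had 689, 706, 651 and 695 CPM and then 694, 735, 754 and 725 CPM and was not called (0.085 ± 0.039, adjusted p = 0.0803), although it was under upper-quartile scaling (0.00612) and without 180 min library 1 (0.0496). Scd2 (-0.55), a fatty acid desaturase, Pnpla2 (-0.39), a triglyceride lipase, and Pltp (-0.38), a phospholipid transfer protein, fell. Of 26 sterol synthesis genes 3 fell and 2 rose, a smaller share than in all genes. Fdft1 (-0.40), Insig2 (-0.33) and Ebp (-0.32) were on the lower side and Sqle (0.20) was on the higher, and the calls of Fdft1 and Sqle were lost when libraries were left out in turn, with adjusted p up to 0.0923 for Fdft1 (without 45 min library 2 or 180 min library 3) and from 0.0498 to 0.212 for Sqle (7 of 8 libraries).

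Metabolic genes fell in several lists. Txnip had 287, 279.7, 293 and 275 CPM at 45 min and 119, 97.4, 117 and 105 CPM at 180 min. Of its relatives, Arrdc4 fell (-0.33 ± 0.073), Arrdc3 rose (0.52 ± 0.066), and Arrdc2 was not called (0.32, adjusted p = 0.0503, or 0.0282 at the lowest with 1 library left out). The transcriptional regulator Mlxip (-0.23) and thioredoxin, Txn1 (-0.23), fell, Mlx was not called (-0.024), and Arrdc1 was higher (0.20) in a call that was lost without any 45 min library or 180 min library 2 or 3 (adjusted p up to 0.279). Of 28 genes of glycolysis, the pentose phosphate pathway and lactate transport 18 fell (64.3%) and 2 rose, with a median of -0.209. Pgk1 (-0.43), Tpi1 (-0.41), Gapdh (-0.38), Aldoa (-0.36) and the first enzyme of the pentose pathway, G6pdx (-0.38), were lower. The 2 that rose control the entry of glucose and the rate of the pathway: Slc2a1, the glucose transporter GLUT1, from 119.7, 119, 123 and 127 CPM to 148, 134, 137 and 135 CPM (0.18 ± 0.052), and Pfkfb3, which makes the activator of phosphofructokinase (0.48 ± 0.043). Slc16a1, a lactate transporter, was not called (0.067 ± 0.096, adjusted p = 0.625).

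Amino acid transporters were called higher in 5 of 19 cases and lower in 5 (26.3% each way, against 18.3% and 18% of all genes). Slc7a11, the cystine importer that feeds glutathione synthesis, rose from 46.1, 43, 43.9 and 41.7 CPM to 111, 131, 123 and 119 CPM (1.47 ± 0.066). Slc36a1 (0.56) and Slc43a2 (0.44) rose, and Slc38a2 (-0.66) and Slc3a2 (-0.35), the shared heavy chain of several exchangers, fell. The integrated stress response, in which the factor ATF4 is translated when amino acids or protein folding fail, gave 17 falls and 2 rises among 25 genes, with a median of -0.284. Falls were 68.0% of the list, against 18% of all genes. Chac1, a glutathione-degrading enzyme and ATF4 target, had 7.07, 9.70, 9.44 and 8.26 CPM at 45 min and 1.5, 1.38, 2.12 and 1.81 CPM at 180 min (-2.29 ± 0.21). Sesn2 (-1.12), a leucine sensor, Ppp1r15a (-1.0), the stress-induced phosphatase subunit GADD34, Trib3 (-0.96) and Atf4 itself (-0.52) fell. Cebpb, a bZIP factor also placed in that list, rose from 329.6, 285, 296 and 290.1 CPM to 509, 487, 461 and 474 CPM (0.68 ± 0.049).

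Polyamine genes were called higher in 5 of 15 cases (33.3%, against 18.3% of all genes) and lower in 3 (20%, against 18%). Arg2, the mitochondrial arginase, rose by 1.15 ± 0.31, and Odc1, the first enzyme of the pathway, went from 129, 118, 121 and 130.4 CPM to 164, 150.3, 129.7 and 149 CPM (0.25 ± 0.054). Azin1 (0.34) and Sat1 (0.24) were higher and Oaz1 (-0.24), the antizyme that marks ornithine decarboxylase for decay, was lower. NRF2 targets and antioxidant genes fell in 8 of 22 cases (36.4%, against 18% of all genes) and rose in 5 (22.7%, against 18.3%). Hmox1, haem oxygenase, rose from 829.6, 757, 780.2 and 846 CPM to 1229, 1126, 1072 and 1129.9 CPM (0.50 ± 0.042), while Gpx1 (-0.56) and both ferritin genes, Fth1 (-0.43) and Ftl1 (-0.32), fell.

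Transcripts of the mitochondrial genome and of the nuclear genome differed for the same machine. Of 12 mitochondrially encoded genes tested 9 rose and none fell, with a median of 1.2, and the 3 not called were transfer RNAs. mt-Co1, a subunit of cytochrome oxidase, had 1291, 1386, 1299 and 1366 CPM at 45 min and 2445, 3681, 3127 and 3122 CPM at 180 min (1.21 ± 0.059). mt-Cytb had 91.5, 93.9, 86 and 95.2 CPM and then 193, 283, 237 and 239.6 CPM (1.37 ± 0.071). The ribosomal RNA mt-Rnr2 rose by 0.94 ± 0.04, less than the messages. The RNA had been depleted of ribosomal RNA, so counts of mt-Rnr2 may also reflect that step. The largest value was that of mt-Nd6, the one message read from the light strand, with 5.04, 4.56, 4.53 and 7.07 CPM and then 17.4, 17.8, 17.5 and 24.3 CPM (1.85 ± 0.15). The strand setting of the counting is not given in the sources used here, so reads of mt-Nd6 and of the opposite strand cannot be told apart. Nuclear-encoded subunits of the respiratory chain fell in 39 of 79 cases (49.4%) and rose in none, with a median of -0.187. Falls made up 18% of all genes and 47.0% of the fifth of coding genes with the highest level. Cox4i1 (-0.36) and Cox8a (-0.44) of cytochrome oxidase, Uqcrc1 (-0.39) of complex III and Atp5b (-0.27) of ATP synthase were among them.

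The mitochondrial share of all counts, with mitochondrial ribosomal RNA included, was 3.54% ± 0.178 (SD, n = 4) at 45 min and 7.0% ± 0.611 at 180 min. Macrophages alone had 4.45% ± 0.223 and those of 90 min 5.88% ± 0.546. An exact two-sided permutation test of 180 against 45 min gave p = 0.0286 (n = 4 and 4), the smallest value that 70 splits allow, and the same value after Benjamini-Hochberg adjustment over 5 shares. All 4 libraries of 180 min lay above all 4 of 45 min. Non-mitochondrial coding genes took 94.0% ± 0.262 of counts at 45 min and 89.7% ± 0.842 at 180 min. With mitochondrial genes left out, 2605 genes rose and 2537 fell.

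Cytosolic ribosomal protein genes fell in 53 of 77 cases (68.8%), rose in 1 and had a median of -0.207. Rpl28 (-0.46) and Rplp0 (-0.34) were lower. These genes have many processed copies in the genome, which can gain or lose reads. The 1 that rose was Rpl10a (0.22, named after its value was seen). Factors that build ribosomes went the other way, with 14 of 42 higher (33.3%, against 18.3% of all genes) and a median of 0.0935. The list had 2 lower (4.76%, against 18%). Gnl3, the nucleolar GTPase nucleostemin, rose from 42.9, 45.2, 47.2 and 42 CPM to 59, 71.8, 63 and 67.3 CPM (0.56 ± 0.067), and Rrs1 (0.50), Tsr1 (0.41), Utp20 (0.37), Heatr1 (0.34) and Ncl (0.20), nucleolin, rose too. Host genes of small nucleolar RNAs, which guide the modification of ribosomal RNA, rose in 6 of 12 cases, among them Snhg20 (1.15), Snhg17 (0.76) and Snhg3 (0.69). The host gene that fell was Zfas1, from 38.9, 36.6, 37.1 and 37.3 CPM to 24.4, 27, 22.5 and 23 CPM (-0.64 ± 0.08).

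**Figure D4:**
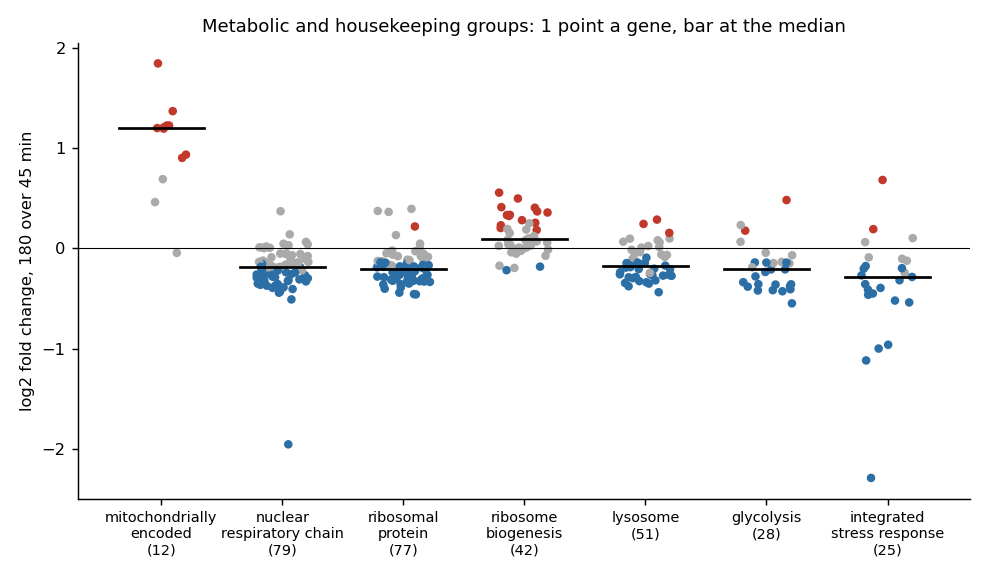
Log2 fold change of 180 over 45 min (y axis) of each tested gene in 7 metabolic and housekeeping groups (x axis, with the number of genes), with red for called higher, blue for called lower, grey for not called and a bar at the median. Mitochondrially encoded genes have a median of 1.2 and nuclear-encoded respiratory chain genes one of -0.187.

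Splicing factors of the SR type and CLK kinases rose in 23 of 27 cases (85.2%, against 18.3% of all genes) and fell in none, with a median of 0.367. Between 21 and 25 members were called higher under every setting tried. Srsf2 had 85.2, 82.8, 85.5 and 87.4 CPM at 45 min and 155, 159, 176 and 155 CPM at 180 min (0.92 ± 0.055). Srsf7 had 37.9, 37.4, 36.3 and 39.3 CPM and then 61.1, 58.4, 60.3 and 59.5 CPM (0.67 ± 0.066), and Srsf3 rose by 0.57 ± 0.058. Luc7l3 (0.68), Luc7l2 (0.55) and Rbm39 (0.41), which act in the choice of splice sites, rose as well. At 90 min Srsf2 was at 140.5 ± 8.25 CPM and in macrophages alone at 74.1 ± 6.11 CPM. SR genes carry exons that lead to decay of the transcript, and counts per gene do not tell such isoforms from the coding ones.

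Genes of polymerase pausing and elongation, the step in the series title, gave 10 falls and 5 rises among 38, with a median of -0.073, so the called share was near the 36.4% of all genes. Polr2a, which encodes the catalytic subunit of RNA polymerase II, had 358, 401, 336 and 373 CPM at 45 min and 271, 261, 295 and 292 CPM at 180 min (-0.39 ± 0.048). Supt5 (-0.26), a subunit of the pausing and elongation factor DSIF, fell as well. Cyclin T2, Ccnt2 (0.41), Cdk12 (0.20) and Aff1 (0.25), which promote elongation, rose. The number of falls was 6 under upper-quartile scaling and 5 with libraries thinned to the smallest total.

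Regulators of mRNA decay were called lower in 7 of 25 cases (28%, against 18% of all genes) and higher in 6 (24%, against 18.3%). Beside Btg2 and Zfp36, Dcp2 (-0.51), the decapping enzyme, and Cnot6l (-0.27), a deadenylase, fell, while Tob2 (0.65), an adaptor of that deadenylase complex, and Pan2 (0.45) rose. Zinc finger genes with a Zfp name, most of them DNA-binding repressors, rose in 107 of 300 tested cases (35.7%) and fell in 15 (5.0%), with a median of 0.22. With a length and GC trend removed, 81 rose, 25 fell and the median was 0.141. These genes resemble each other, and reads shared between family members can be split among them.

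Lineage factors of myeloid cells rose in 11 of 27 cases (40.7%, against 18.3% of all genes) and fell in 10 (37.0%, against 18%). Cebpa, which drives myeloid differentiation, had 33.8, 34.9, 32.2 and 32.7 CPM at 45 min and 70.7, 68.4, 64.1 and 60.2 CPM at 180 min (0.98 ± 0.078), and was at 33.2 ± 5.83 CPM at 90 min. Bhlhe40 (0.87 ± 0.052), a transcriptional repressor, its relative Bhlhe41 (0.72) and Hif1a (0.43), the hypoxia factor, rose. Maf, a factor of tissue macrophages, fell (-0.44). Cell cycle genes gave 5 rises and 6 falls among 38, a smaller share than the 36.4% called over all genes, and 3 rises without 45 min library 2, 3 or 4 or 180 min library 4. Cyclins Ccnd2 (-0.54) and Ccnd3 (-0.40) and the inhibitor Cdkn1a (-0.28) fell. Myc had 22.5, 20.5, 19.7 and 18.4 CPM and then 21.7, 29.8, 21.3 and 23.8 CPM, and its log2 fold change of 0.24 ± 0.098 was at the edge of the threshold (adjusted p = 0.0489) and was lost without 45 min library 2, 3 or 4 or 180 min library 2 or 4 (adjusted p up to 0.341). Of the MYC antagonists Mxi1 rose (0.75) and Mxd1 fell (-0.56).

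**Figure D5:**
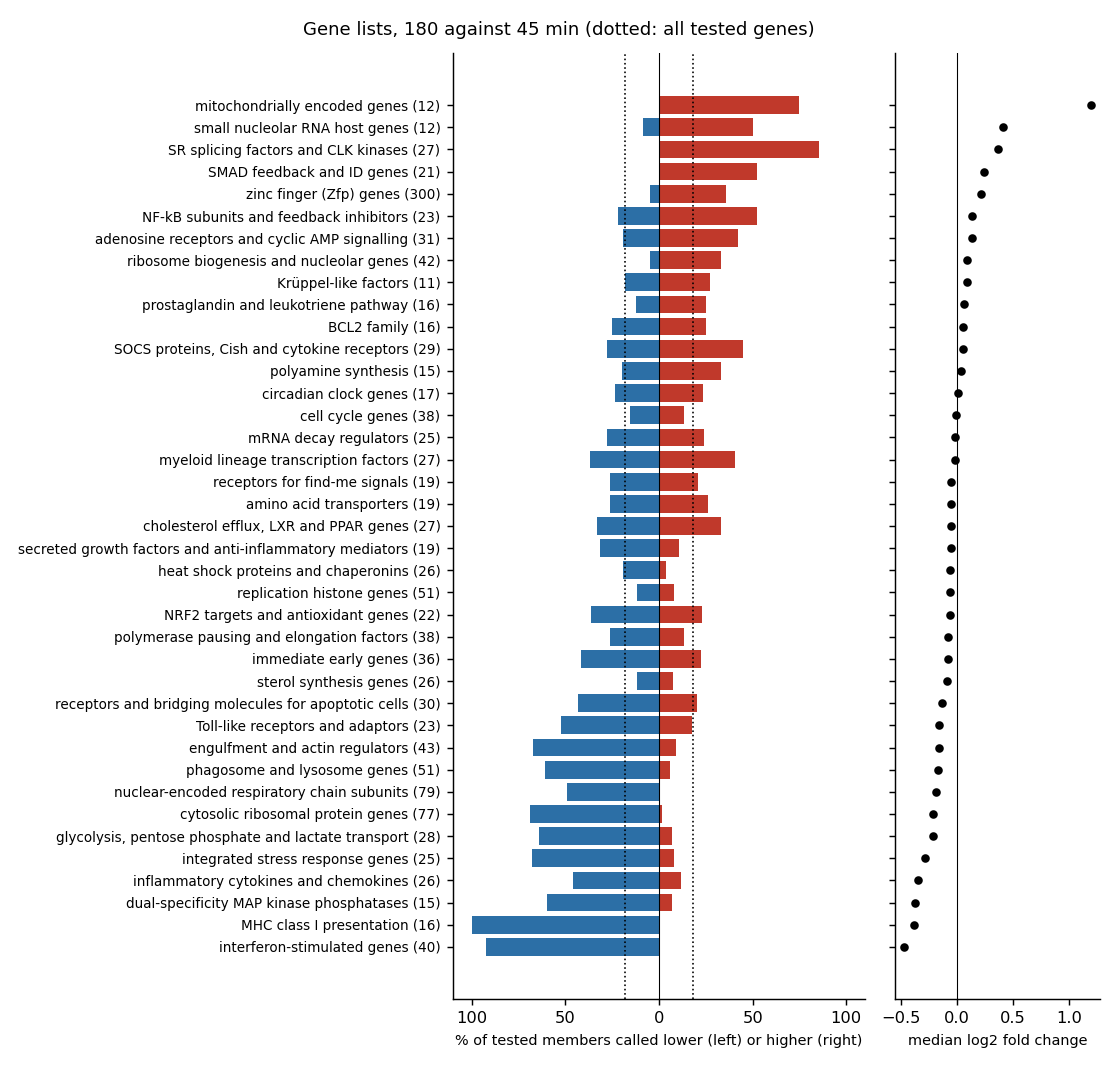
Share of the tested members of each gene list of at least 10 genes that was called higher (right, red) or lower (left, blue) at 180 min, in percent, with the number tested in brackets and dotted lines at 18.3% and 18% for all genes; the right panel gives the median log2 fold change. MHC class I and interferon-stimulated genes are called lower in all 16 and in 92.5% of members, and splicing genes higher in 85.2%.

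By gene class, noncoding genes located within introns of coding genes moved mostly to one side. Of 738 tested 330 rose (44.7%) and 5 fell, with a median log2 fold change of 0.942. Their share of counts was 0.0946% ± 0.0120 (SD, n = 4) at 45 min, 0.174% ± 0.0223 at 180 min and 0.150% ± 0.0144 in macrophages alone. The 4 libraries of 180 min lay above all 4 of 45 min (exact two-sided permutation p = 0.0286, the smallest possible). Against macrophages alone the class had a median of -0.767 at 45 min and of 0.17 at 180 min. The 45 min median thus lay further from macrophages alone than the 180 min median did. These genes lie in the introns of coding genes on the same strand, so their reads cannot be told from those of unspliced host transcripts. Other long noncoding genes rose in 251 of 1276 cases (19.7%, near the 18.3% of all genes) and fell in 30 (2.35%), with a median of 0.365.

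Among coding genes the calls varied with length and level. In the fifth of coding genes with the shortest exon length, 6.96% rose and 26.5% fell, and in the fifth with the longest 26.2% rose and 16.9% fell. In the fifth with the highest level 17.8% rose and 47.0% fell, and in that with the lowest level 10.7% rose and 2.67% fell. With the trend on length and GC content removed, 50 of 77 ribosomal protein genes and 38 of 79 respiratory chain genes were called lower. In that setting the median of the splicing list was 0.282 and that of the mitochondrially encoded genes 0.936. No setting removed the trend on level, and its part in the falls of the gene lists was not tested.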

How the data were processed

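Total RNA depleted of ribosomal RNA was sequenced with a kit that marks strand, per the labels' protocols. The file deposited by the authors is a single table of unnormalized read counts. The submitters' processing notes name STAR 2.7.9a, SAMtools, HTSeq and the build mm39. Neither the strand setting, nor the annotation release, nor what was done with reads of human origin is given in the sources used here.

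The table's column headings give the time of a library but no replicate number. Of 55416 gene IDs, 52135 had a symbol in GENCODE M21, an annotation of the build before mm39. IDs without a symbol held 0.208% to 0.321% of the counts. Each library counted as 1 sample. Libraries of a time differed by more than sampling noise (chi-square per degree of freedom from 4.75 to 9.88), which does not show that they are separate cultures. Weakly expressed genes were removed with filterByExpr (minimum count 10, minimum total 15). Libraries were scaled by trimmed mean of M values. The contrast of 180 min minus 45 min was fitted in edgeR 4.0.16 under R 4.3.3 on all 16 libraries with group as the only term and tested by quasi-likelihood. P-values were adjusted by Benjamini-Hochberg over 14168 genes, and genes were called at an adjusted p under 0.05. The standard error is the size of the log2 fold change divided by the square root of F. The procedure was tested on simulated data. Shares of counts were compared by exact permutation over samples.

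Genes named are the 15 largest rises and the 15 largest falls (called, no overlap between times, mean log2 CPM of 1 or more, clone and numbered model names skipped), the 6 lowest p-values per list (lists of up to 9 in full), and 16 set genes, and some of these are not reported here. The comparison and the 48 lists (1641 entries, 1434 tested) were chosen with earlier results of these data known, and lists share members, so lists are described by counts and medians without a test. Promoters are those of a RefSeq table, matched by symbol. The alternatives were other scaling factors, DESeq2 1.42.0, other filters, 8 libraries only, thinned libraries, coding genes only, removal of a length and GC trend, and leaving out each library.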

Additional observations from a re-analysis of the deposited data

Results flagged for a closer look

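In 96 groups of 4 values that were looked at (45 min and 180 min for the named single genes and the shares of counts), 5 held a library far from the other 3 by Dixon's criterion. Chance alone marks about 1 in 20 such groups. At 180 min, library 1 had 4.70 CPM of Cables1 against 6.98 to 7.33 CPM in the others. Library 2 of 180 min, the one with the fewest counts, had 15.3 CPM of Mir17hg against 10.1 to 10.5 CPM, and 2.48 CPM of Il10 against 0.680 to 0.843 CPM. Library 4 of 180 min had 24.3 CPM of mt-Nd6 against 17.4 to 17.8 CPM. At 45 min, library 2 had 0.113% of its counts in noncoding genes inside introns, against 0.0872% to 0.0902%.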

How the results depend on the processing

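No paired analysis was possible because the column headings of the table carry no replicate number. Across 10 other settings, 2172 to 3021 genes were called higher and 2011 to 2972 lower, and between 4115 and 5140 genes were called as in the fit with 5152. With 1 library left out at a time, 2142 to 2457 genes were called higher and 2353 to 2701 lower. The largest shift in balance was under upper-quartile scaling, with 3021 higher and 2011 lower genes. Removing the trend on length and GC content gave 2287 and 2972, and 5 genes then had the opposite call. Protein-coding genes tested alone gave 2172 and 2212. Leaving the mitochondrial genes out, a setting chosen after seeing the data, gave 2605 and 2537. Over 263 named genes and these settings, 4637 of 4718 calls were the same, 55 were lost, 26 were gained and none was reversed. Besides the genes discussed with the results, the calls of Hspd1 (adjusted p from 0.0564 to 0.22 with 1 library left out), Gas5 (0.126 at most, without 180 min library 3), Snhg15 (0.091 at most, without 45 min library 1 or 180 min library 2) and Hsp90b1 (0.0829 at most, under upper-quartile scaling) were lost under some settings. Heat shock genes called lower numbered 5, but 11 without 180 min library 1 and 10 with the length and GC trend removed. Depth at 180 min, 10690809 to 23423640 counts, limits the weakly expressed genes most, and thinning all libraries to the smallest total gave 2343 higher and 2222 lower genes.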

Other observations

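Some gene groups that have not been described held members called higher and members called lower. BCL2 family genes rose in 4 of 16 cases and fell in 4 (25% each way, against 18.3% and 18% of all genes). Bcl2 (0.76 ± 0.10), an inhibitor of apoptosis, and Bcl2a1d (0.92 ± 0.12) and Bcl2a1a (0.60 ± 0.094), which are near-identical copies and may share reads, rose. The pro-apoptotic genes Pmaip1 (-0.90 ± 0.089), Bak1 (-0.42 ± 0.05) and Bcl2l11 (-0.28 ± 0.045) fell. Pmaip1 had 39.5, 43.7, 46.1 and 42.2 CPM at 45 min and 21.7, 22.4, 20.2 and 27.1 CPM at 180 min, and the 2 sets did not overlap. Circadian clock genes also gave 4 rises and 4 falls among 17 tested (23.5% each way, against the same shares of all genes). Nfil3 (-1.0 ± 0.10), a repressor of clock output, and Per1 (-0.42 ± 0.063) fell, and Cry1 (0.68 ± 0.098), Clock (0.36 ± 0.076) and Dbp (0.72 ± 0.18) rose. Dbp went from 5.20, 4.49, 2.97 and 5.28 CPM at 45 min to 7.97, 8.09, 7.52 and 6.36 CPM at 180 min.

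In the prostaglandin and leukotriene pathway 4 of 16 genes rose and 2 fell, a called share near the 36.4% of all genes. Ptgs2, which makes the precursor of prostaglandins, and Alox5ap (-0.20 ± 0.047), needed for leukotrienes, fell. Hpgds (0.32 ± 0.045) and Tbxas1 (0.21 ± 0.058), the synthases of prostaglandin D2 and thromboxane, and the receptors Ptger2 (0.29 ± 0.056) and Ptger4 (0.91 ± 0.064) rose. Krüppel-like factors rose in 3 of 11 cases (27.3%, against 18.3% of all genes) and fell in 2 (18.2%, against 18%). Klf7 (0.28 ± 0.063), Klf10 (0.40 ± 0.061) and Klf16 (0.42 ± 0.11) rose, and Klf6 (-0.40 ± 0.037) and Klf11 (-0.45 ± 0.13) fell. Heat shock proteins and chaperonins were called in 6 of 26 cases, where 36.4% of all genes were. The chaperone of the endoplasmic reticulum Hspa5 (-0.40 ± 0.042) and the cytosolic Hsp90ab1 (-0.31 ± 0.041) were among the 5 that fell, and 11 fell without 180 min library 1. Of 51 replication histone genes 4 rose and 6 fell, a smaller share than in all genes, with a median of -0.064, and 2 rose without 45 min library 3 or 180 min library 2. One T cell marker was called: Cd5, at 0.589, 0.0340, 0.412 and 0.605 CPM at 45 min and 2.25, 1.93, 1.49 and 1.39 CPM at 180 min (2.06 ± 0.58), named after its values were seen. Whether reads of the human Jurkat cells entered the counts of Cd5 was not tested.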
